A study of Mus musculus with 18 samples.

Results

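The mitochondrial ribosomal protein genes are the nuclear genes named Mrpl (large subunit) or Mrps (small subunit). They were taken as all rows of the table whose symbol is Mrpl or Mrps followed by a number and at most 1 letter from a to c. Of 24411 gene symbols, 77 met this rule. By what is known of the mature ribosome, 50 of them encode proteins of the large subunit, among them Mrps30 and Mrps18a in spite of their names, and 26 encode proteins of the small subunit. Mrps36 fits the rule by its symbol, but its product is now known as a part of the oxoglutarate dehydrogenase complex.

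Mitochondria keep a ribosome of their own that makes the few membrane proteins encoded by mitochondrial DNA, all of them subunits of the oxidative phosphorylation complexes. Its RNA comes from mitochondrial DNA, whereas its proteins are encoded in the nucleus, made in the cytosol and imported. Some of these proteins descend from the bacterial ribosome and others were added in the mitochondrial lineage. In macrophages, stimulation with interferon and bacterial lipopolysaccharide is known to lower mitochondrial respiration and to favour glycolysis, whereas IL-4 is known to sustain respiration.

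The series holds 18 RNA-seq libraries, 6 groups of 3, of messenger RNA from the mouse macrophage line RAW264.7. Control cells carried a control guide RNA, and knockout cells were of a line made deficient with CRISPR/Cas9 in Kdm7a, a histone demethylase. Both were left unstimulated (M0), given interferon gamma at 2 ng/ml with lipopolysaccharide at 0.1 µg/ml (M1), or given 20 ng/ml each of IL-4, IL-13 and IL-10 plus 2 ng/ml of human TGF-beta 1 (M2), for 48 h. The series asked how loss of Kdm7a alters the transcriptome of macrophages during polarization. The labels name 1 knockout line and 1 control line, and do not say whether the knockout line is 1 clone or whether replicates were separate cultures. Other differences between these lines cannot be told apart from those of the knockout, and the p-values then cover no more than the spread among 3 libraries, which may be technical.

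Values are TPM, transcript shares scaled by gene length to a fixed total, so levels of different genes can be set side by side. TPM keeps no depth, and the depth of the libraries is unknown. In unstimulated, M1 and M2 cells, Kdm7a itself had means of 11.1, 29.7 and 23.3 TPM with the control guide and of 3.37, 7.49 and 6.80 TPM in the knockout line. The 8 macrophage markers looked up were at 26.96 TPM or more in every library. Markers of T cells, B cells, fibroblasts, epithelial cells and neutrophils, 17 in all, summed to 1.88 to 22.14 TPM, with 5 at 0 in every library and most of the sum from Cd79a. In these bulk libraries, fewer cells of a type and less RNA per cell cannot be told apart.

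The promoters of some genes with the largest changes and of the Mrps18 paralogs are shown here. Whether these sequences bear on the changes was not tested. For 68 of the 77 genes a RefSeq promoter of the GRCm38.p6 build was matched by symbol. The stretches hold the 120 bases before the start in RefSeq, 5′ to 3′ on the gene's strand. The GENCODE annotation, used for the exon overlaps given further on, can place the start elsewhere: the RefSeq start of Mrps18c lies 132 bases inside its GENCODE gene, so that its whole stretch does too, and that of Mrps6 lies 66 bases inside. Capitals mark an ETS core, CCGGAAG or its reverse complement, the kind of site bound by GABP, which is known for driving nuclear genes of mitochondrial proteins. In control cells Mrpl42 and Mrpl12 fell most under M1, and Mrpl45 and Mrpl27 rose most. Mrpl52 rose most and Mrps6 fell most under M2, and the 3 Mrps18 genes are paralogs that went different ways. Only Mrps18a of these 3 shows an ETS core in the printed stretch. In the wider window from 250 bases before to 50 bases after the start, all 3 held one.
Mrpl42 promoter, chr10:95501950-95502069 (minus strand): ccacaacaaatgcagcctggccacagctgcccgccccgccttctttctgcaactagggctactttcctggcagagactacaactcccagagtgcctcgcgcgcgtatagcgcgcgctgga
Mrpl12 promoter, chr11:120484517-120484636 (plus strand): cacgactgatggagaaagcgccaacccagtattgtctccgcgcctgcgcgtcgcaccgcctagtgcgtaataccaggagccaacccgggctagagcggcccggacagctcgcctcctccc
Mrpl45 promoter, chr11:97315596-97315715 (plus strand): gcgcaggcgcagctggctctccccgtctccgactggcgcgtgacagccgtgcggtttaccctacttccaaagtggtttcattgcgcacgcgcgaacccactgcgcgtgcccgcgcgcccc
Mrpl27 promoter, chr11:94653671-94653790 (plus strand): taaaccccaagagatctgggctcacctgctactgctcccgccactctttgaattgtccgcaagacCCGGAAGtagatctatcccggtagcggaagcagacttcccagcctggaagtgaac
Mrpl52 promoter, chr14:54426789-54426908 (plus strand): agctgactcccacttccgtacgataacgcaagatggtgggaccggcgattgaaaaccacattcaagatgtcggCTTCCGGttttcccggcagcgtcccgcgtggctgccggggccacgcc
Mrps6 promoter, chr16:92058216-92058335 (plus strand): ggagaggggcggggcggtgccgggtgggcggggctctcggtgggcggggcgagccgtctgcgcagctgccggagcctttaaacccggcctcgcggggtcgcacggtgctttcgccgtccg
Mrps18a promoter, chr17:46110884-46111003 (plus strand): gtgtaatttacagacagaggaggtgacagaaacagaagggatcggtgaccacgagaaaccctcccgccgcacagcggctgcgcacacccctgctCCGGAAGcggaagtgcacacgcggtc
Mrps18b promoter, chr17:35916441-35916560 (minus strand): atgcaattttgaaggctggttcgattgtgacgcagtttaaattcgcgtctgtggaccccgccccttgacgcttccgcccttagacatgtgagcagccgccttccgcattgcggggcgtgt
Mrps18c promoter, chr5:100798639-100798758 (plus strand): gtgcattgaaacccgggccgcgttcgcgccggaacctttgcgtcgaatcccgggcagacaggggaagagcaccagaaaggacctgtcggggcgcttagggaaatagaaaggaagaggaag

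In the whole window from 250 bases before to 50 bases after the start, on both strands, the ETS core CCGGAAG stood in 25 of the 68 promoters (36.8%). Of the 8784 tested genes with a RefSeq promoter 21.5% held it, and of all 27025 genes with one 9.93%. The YY1 motif AAGATGGC stood in 12 promoters (17.6%), against 5.73% of tested genes and 3.19% of all genes. The NRF1 core GCGCATGCG stood in 7 (10.3%, against 4.42% and 1.95%), and the MYC E-box CACGTG in 5 (7.35%, against 12.1% and 8.09%). The interferon response core GAAANNGAA stood in 7 (10.3%, against 8.98% and 9.76%), the TATA motif TATAAA in 5 (7.35%, against 8.47% and 15.7%), the CRE TGACGTCA in 2 (2.94%, against 3.87% and 2.03%) and the NF-kappaB core GGGACTTTC in 0 (against 0.490% and 0.403%). None of these letter strings contains another. As a description, the genes with an NRF1 core had a median log2 change of -0.91 under M1 in control cells and those without one -1.24. For the E-box the medians were -1.43 with and -1.22 without, for the ETS core -1.23 and -1.22, and for the YY1 motif -1.30 and -1.22. They were -1.10 and -1.24 for the interferon response core, -1.40 and -1.22 for the TATA motif, and -1.39 and -1.22 for the CRE. Apart from the ETS core and the YY1 motif, each of these groups with a motif holds 7 genes or fewer.

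In unstimulated control cells every member was expressed. Their group means ran from 21.4 TPM for Mrpl35, a large subunit protein with a bacterial homolog, to 388 TPM for Mrpl42, a mitochondrion-specific large subunit protein. The median member stood at 89.3 ± 1.8 TPM (SD, n = 3). Over all 18 libraries, values of members lay between 6.6 and 398.69 TPM, and none was listed at 0, so all 77 passed the filter of 1 TPM in at least 3 libraries and were tested with 11548 genes in all. By mean over all libraries, Mrps21, Mrpl30 and Mrpl42 were the highest at 310.3, 267.1 and 261.1 TPM, and Mrpl41, Mrpl11 and Mrpl35 the lowest at 20.9, 18.7 and 15.7 TPM. The genes of 1 ribosome thus differed in transcript level by 18.2-fold between the lowest and the highest mean in unstimulated control cells. That span was 26.04-fold under M1 and 20.1-fold under M2 in control cells, and 20.2-, 41.3- and 24.4-fold in unstimulated, M1 and M2 knockout cells.

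Under M1 stimulation of control cells the mitochondrial ribosomal protein genes fell almost as a body: 72 of the 77 were lower, 5 were higher, and 52 were lower by 2-fold or more. Of all 11548 tested genes 56.9% fell, 32.2% rose and 30.9% fell at least 2-fold. As a median, the log2 change on the log2(TPM + 1) scale, used for every log2 change here, was -1.23 for the members and -0.38 for all tested genes. The summed level of the 77 genes was 8289, 8338 and 8298 TPM in the unstimulated control libraries and 3944, 3969 and 4033 TPM under M1. The M1 libraries thus held 0.398% of all TPM in these genes against 0.831% without stimulation. TPM are shares, so strong rises elsewhere lower all other values. With trimmed-mean (TMM) factors, which moved the median of all tested genes from -0.38 to 0.05, 62 members were lower and 9 higher, beside 43.0% and 46.3% of all genes. The median member was then at -0.73. Mrpl13, Mrpl24, Mrpl32, Mrpl53 and Mrps18a, all called lower as TPM, turned to a positive change with TMM factors, and 4 of the 5 were then called higher.

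Among the large subunit genes, Mrpl42 fell most. Its libraries stood at 390.85, 376.77 and 396.33 TPM without stimulation and at 47.26, 46.08 and 49.58 TPM under M1, so the groups were far apart. The log2 change was -3.0 ± 0.047 (SE, limma adjusted p = 4.03e-22), which left 12.3% of the unstimulated level. Mrpl12, a protein of the stalk on which translation factors act, stood at 325.12, 334.69 and 308.77 TPM without stimulation and at 42.56, 35.14 and 43.93 TPM under M1. It fell by 2.97 ± 0.067 log2 units (limma adjusted p = 2.66e-18). Mrpl10, the protein that anchors Mrpl12 in the stalk, fell less: from 82.88, 88.17 and 86.68 TPM to 50.72, 50.93 and 50.60 TPM, a log2 change of -0.75 ± 0.038 (limma adjusted p = 1.36e-13). Mrpl23, which lies by the exit of the peptide tunnel, went from 184.87, 181.21 and 171.11 TPM to 23.02, 26.55 and 27.54 TPM, a log2 change of -2.76. Before stimulation Mrpl42 and Mrpl12 were the members with the highest and second highest means, and under M1 both were near the median of the members, 38.2 ± 0.61 TPM.

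The 5 members that went up were 4 of the 50 large subunit genes and 1 of the 26 small subunit genes. Mrpl45, which is known to hold the ribosome to the inner membrane, rose from 77.23, 74.18 and 78.81 TPM to 124.97, 125.89 and 127.02 TPM (log2 change 0.71 ± 0.039, limma adjusted p = 4.32e-13). Mrpl27, whose tail reaches towards the peptidyl transferase centre, rose from 87.90, 90.75 and 92.52 TPM to 136.31, 137.82 and 144.05 TPM (0.62 ± 0.045, limma adjusted p = 6.54e-11). For both genes every M1 library was above every unstimulated library. Mrps18c rose by 0.38, Mrpl14, at the face between the subunits, by 0.37, and Mrpl52, a mitochondrion-specific protein, by 0.16 (limma adjusted p = 4.3e-06, 5.08e-07 and 0.00203). These 5 genes were also higher with TMM factors.

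Some of the values could carry reads of other genes, and the sources used here do not say whether reads were counted by strand. Exons of 32 of the 77 members share bases with an exon of another gene in the GENCODE annotation of GRCm38, 8 of them on the same strand. Mrpl14 shares 106 exon bases with Tmem63b on the opposite strand, which went from 12 to 29.2 TPM under M1 in control cells. Mrpl27 shares 75 with Eme1 on the opposite strand, which went from 22.2 to 0.993 TPM. Mrps25, Mrpl19 and Mrpl47, named further on, share more, all on the opposite strand. Mrps25 shares 4590 with Nr2c2, at 24.9 TPM in unstimulated control cells, and Mrpl19 1962 with Gcfc2, at 8.26 TPM. Mrpl47 shares 616 with Ndufb5, at 160.3 TPM, and 452 with Actl6a, at 98.35 TPM. Mrpl45 (chr11:97315716-97329920, plus strand) and Mrpl52 (chr14:54426909-54429756, plus strand) share none. Mrpl12 shares 200 with the long noncoding RNA gene Gm16755 and Mrps18b 638 with the antisense gene Gm16279, both on the opposite strand, and Mrps18c 250 with Gm43511 on the same strand. These 3 genes were not analysed here. The part of such overlaps in the changes was not tested.

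**Figure D1:**
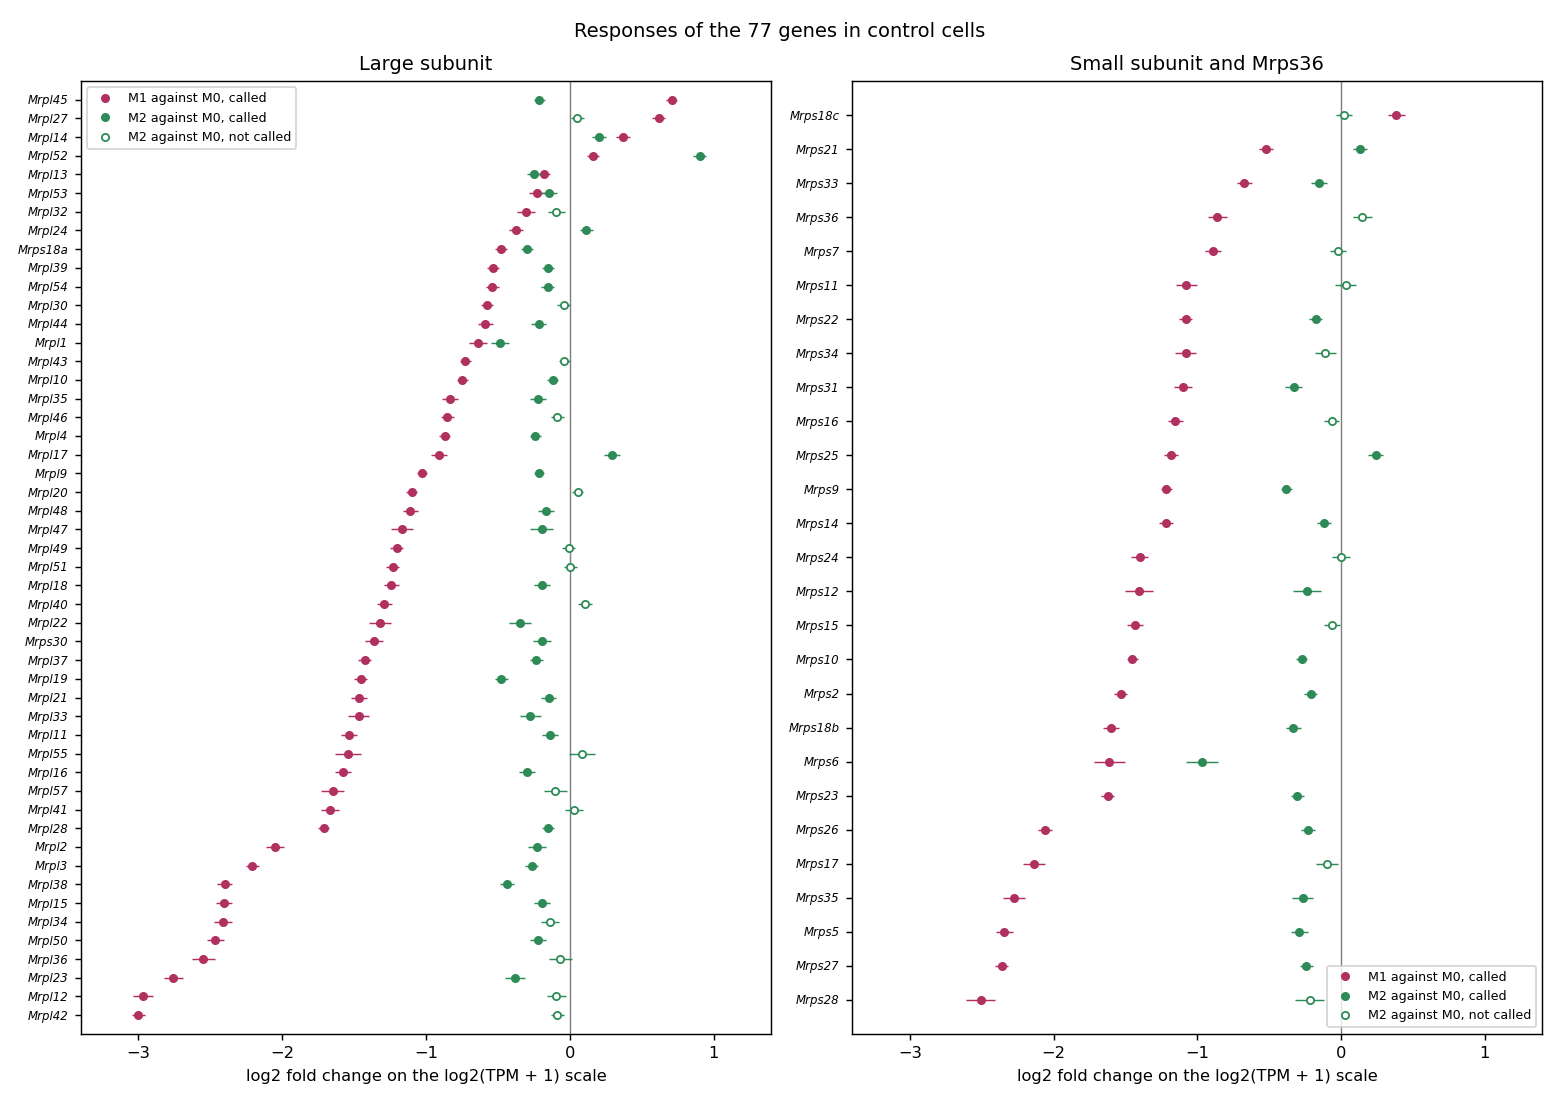
Log2 fold change (x axis, log2(TPM + 1) scale) of each of the 77 genes under M1 and M2 against unstimulated control cells, with the standard error of the fit as a bar. Filled points passed an adjusted p of 0.05. The M1 points run from -3.0 to 0.71 with 5 above 0, while the M2 points lie between -0.97 (Mrps6) and 0.90 (Mrpl52).

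The 2 subunits fell to different degrees in sum. The summed TPM of the 26 small subunit genes was 2647 ± 29.7 without stimulation and 1156 ± 8.8 under M1 in control cells, and that of the 50 large subunit genes 5592 ± 48.0 and 2788 ± 40.7. The ratio of small to large was 0.484, 0.466 and 0.471 in the unstimulated libraries and 0.419, 0.413 and 0.412 under M1, so the groups did not overlap. In knockout cells the ratio was 0.474, 0.465 and 0.479 without stimulation and 0.411, 0.410 and 0.414 under M1. Under M2 it was between these levels, 0.448 ± 0.0037 in control and 0.456 ± 0.0062 in knockout cells. This ratio does not depend on how libraries are scaled. The median log2 change under M1 was -1.40 for small and -1.22 for large subunit genes. For the 48 genes with a bacterial homolog it was -1.36 (45 lower, 3 higher), and for the 28 mitochondrion-specific genes -1.19 (26 lower, 2 higher).

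**Figure D2:**
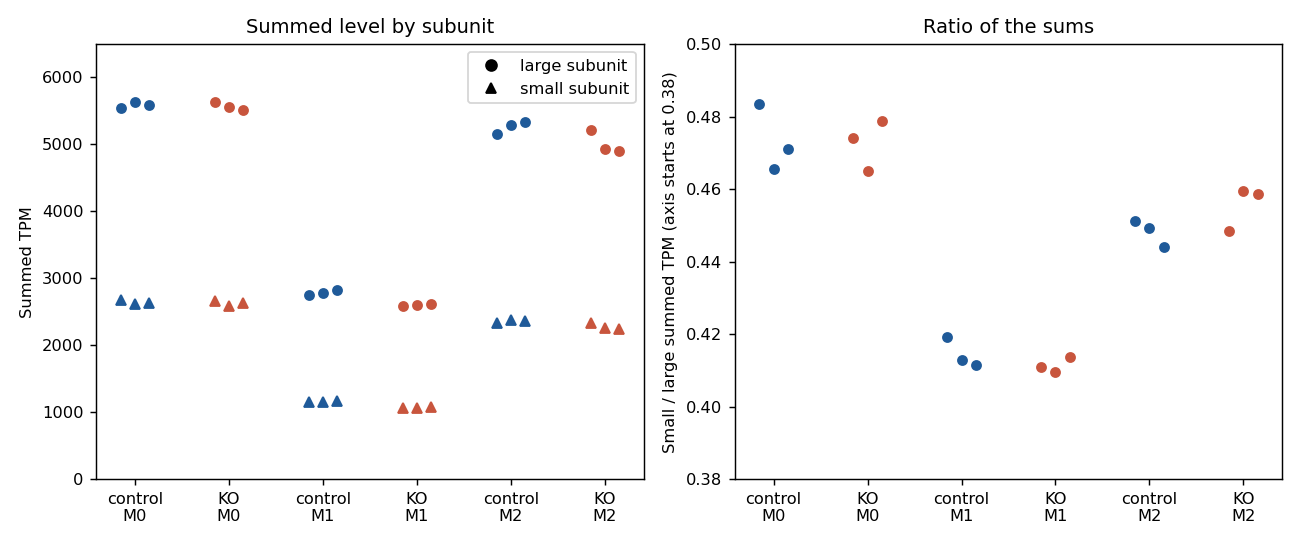
Left, summed TPM of the 50 large subunit genes (circles) and the 26 small subunit genes (triangles) in each library, control in blue and knockout (KO) in red; right, the ratio of the small to the large sum, on an axis that starts at 0.38. The 6 M1 libraries have ratios from 0.410 to 0.419, below the 6 M2 libraries and the 6 unstimulated libraries, which lie at 0.465 or above.

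The Mrps18 paralogs descend from 1 bacterial ribosomal protein and take 3 different places, Mrps18a in the large subunit and Mrps18b and Mrps18c in the small one. Without stimulation they had similar levels in control cells: 150.7 ± 9.9, 121.7 ± 8.2 and 127.9 ± 11 TPM. Under M1 they parted. Mrps18c rose from 117.06, 138.92 and 127.59 TPM to 155.38, 164.27 and 181.54 TPM. Mrps18b fell from 127.33, 125.55 and 112.26 TPM to 40.60, 39.23 and 38.36 TPM, a log2 change of -1.60 ± 0.053 (limma adjusted p = 8.44e-17). Mrps18a went from 161.25, 149.07 and 141.63 TPM to 109.87, 105.64 and 107.84 TPM (-0.48 ± 0.042, limma adjusted p = 1.39e-09), but its direction turned with TMM factors (0.028, limma adjusted p = 0.544). In the control M1 libraries, Mrps18c was thus the highest of the 3 and Mrps18b the lowest, with no overlap between the genes.

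Members with small subunit names that sit elsewhere also fell. Mrps30, a mitochondrion-specific protein of the large subunit, went from 68.4 ± 4.3 to 25.99 ± 1.1 TPM (-1.36 ± 0.061, limma adjusted p = 1.46e-14). Mrps36 went from 69.8 ± 4.2 to 37.95 ± 2.1 TPM (-0.86 ± 0.067, limma adjusted p = 2.42e-10).

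Under M2 the members moved far less, and most of those called were again lower. In control cells 45 of 77 were lower, 6 higher and 26 not called, beside 37.0% lower and 28.4% higher among all tested genes. The median log2 change was -0.15 for members and -0.05 for all genes. The summed level was 7697 ± 116 TPM, against 8308.5 ± 26.3 TPM without stimulation. With TMM factors 32 were lower and 8 higher, beside 31.4% and 32.5% of all genes. Of the 72 members that fell under M1, 44 were also lower under M2, 4 were higher (Mrpl17, Mrpl24, Mrps21 and Mrps25) and 24 were not called. Of the 6574 tested genes that fell under M1 in these cells, 49.4% were lower and 18.1% higher under M2. M1 and M2 were compared with the same unstimulated libraries, so these counts are not independent. Mrpl45, the largest rise under M1, was lower under M2 at 63.99, 65.54 and 68.98 TPM (-0.21 ± 0.039, limma adjusted p = 8.11e-05).

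Mrpl52 and Mrps6 stood apart under M2. Mrpl52 rose from 167.91, 185.96 and 171.62 TPM to 326.76, 320.05 and 338.47 TPM (0.90 ± 0.044, limma adjusted p = 5.63e-13), to 187% of the unstimulated level. In knockout cells it rose from 183.62, 191.98 and 186.13 TPM to 375.50, 370.40 and 350.22 TPM (0.96 ± 0.044, limma adjusted p = 1.7e-13). The M2 libraries of both genotypes were above all unstimulated and M1 libraries. The next largest rises under M2 in control cells were those of Mrpl17, 0.29, and Mrps25, 0.24, both small. Mrps6, a small subunit protein with a bacterial homolog, fell from 139.29, 118.35 and 127.71 TPM to 65.34, 59.92 and 70.29 TPM (-0.97 ± 0.11, limma adjusted p = 1.3e-06), and in knockout cells to 56.01, 48.80 and 46.43 TPM (-1.21). Mrps6 shares 305 exon bases on the same strand with the gene Gm49711, which was not analysed here. It also shares 159 on the same strand with Slc5a3, an inositol transporter gene that lies within it. Slc5a3 stood at 7.04 ± 1.2 TPM without stimulation, 1.35 ± 0.17 under M1 and 2.86 ± 0.15 under M2 in control cells, so it was lower in the same groups as Mrps6, and its part in the value of Mrps6 was not tested. Mrps36 was not called under M2 (0.15, limma adjusted p = 0.0603), and neither was Mrpl12 (-0.09, limma adjusted p = 0.229).

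**Figure D3:**
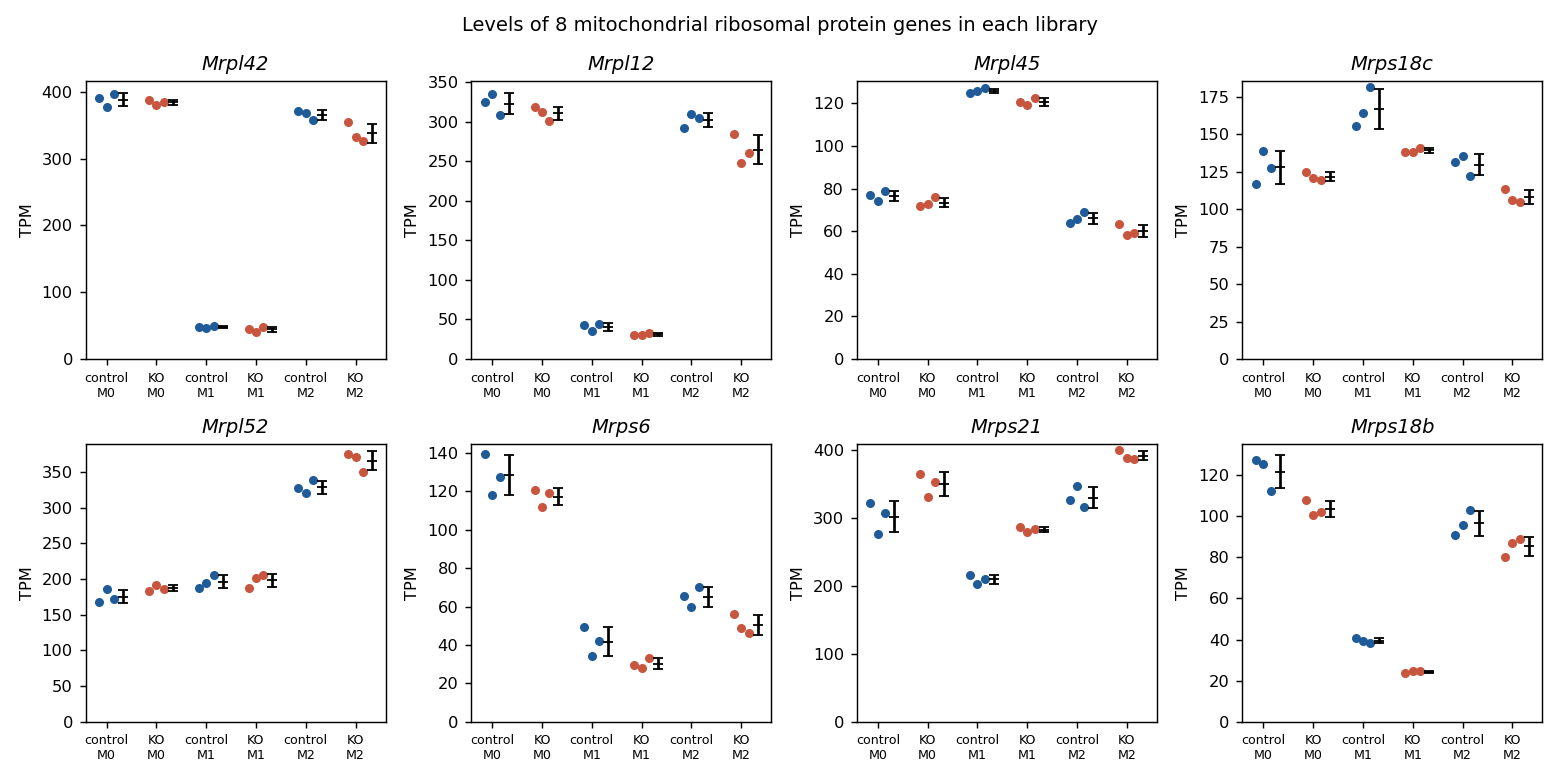
TPM (y axis from 0) of 8 members in each of the 18 libraries, by group on the x axis, control in blue and knockout (KO) in red, with the mean and SD of the 3 libraries beside the points. Mrpl42 and Mrpl12 drop under M1, Mrpl45 and Mrps18c rise, Mrpl52 is highest under M2, and Mrps21 is higher and Mrps18b lower in knockout than in control cells.

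Knockout cells responded to M1 and M2 along the same lines. Under M1 72 members were lower, 4 higher and 54 lower by 2-fold or more, beside 58.4%, 32.0% and 33.6% of the tested genes. With TMM factors 63 were lower and 9 higher, beside 43.9% and 46.2%, and 7 called members turned their direction, 4 of them then called higher. All 72 that were lower in control cells were lower here, beside 95.8% of all tested genes lower in control cells, and Mrpl45, Mrpl27, Mrps18c and Mrpl14 were higher in both genotypes. Mrpl52 was higher in control cells and not called in knockout cells (0.08, limma adjusted p = 0.0935). The median change was -1.44, and Mrpl12 fell to 30.21, 29.91 and 33.13 TPM (-3.28 ± 0.067, limma adjusted p = 5.09e-19), 10.0% of its unstimulated knockout level. Under M2 53 members were lower and 5 higher, beside 43.2% and 29.6% of all genes. Mrps6 was the 1 member lower by 2-fold or more, beside 2.83% of all genes. Of all 77 members, 42 were lower and 5 higher under M2 in both genotypes, beside 33.9% and 24.7% of all tested genes. With TMM factors 39 members were lower and 8 higher under M2 in knockout cells, beside 35.6% and 34.6% of all genes.

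Without stimulation most members were not called between knockout and control cells. Of the 77, 3 were higher, 6 lower and 68 not called, beside 8.86% higher and 10.3% lower among all tested genes. The summed level was 8367, 8224 and 8217 TPM in knockout and 8289 to 8338 TPM in control libraries, which overlapped. Mrps21, a small subunit protein with a bacterial homolog, was higher at 364.73, 329.89 and 351.97 TPM against 320.93, 276.26 and 306.61 TPM (0.21 ± 0.047, limma adjusted p = 0.00298). Mrpl1, a protein of the stalk beside the exit for spent transfer RNA, was lower at 27.50, 32.81 and 32.12 TPM against 35.67, 37.09 and 39.87 TPM (-0.28 ± 0.061, limma adjusted p = 0.00261). Mrpl38 was higher (0.19, limma adjusted p = 0.00969). The call of Mrps9 (0.12, limma adjusted p = 0.0386) was lost without any 1 of the 6 libraries compared.

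As TPM, most of these genes were called lower in knockout than in control cells under M1. Relative to control cells under M1, 47 members were lower, 4 higher and 26 not called, beside 33.4% lower and 16.9% higher among all tested genes. The median log2 change was -0.19 for members and -0.06 for all genes. The summed level was 3690, 3698 and 3746 TPM in the knockout and 3944, 3969 and 4033 TPM in the control libraries, with no overlap. With TMM factors 35 members were lower and 6 higher, beside 27.1% and 24.0% of all genes. Of the 26 small subunit genes 18 were lower and 1 higher (median -0.25), and of the 50 large subunit genes 29 were lower and 3 higher (median -0.17). Of the 48 with a bacterial homolog 32 were lower and 4 higher (median -0.25), and of the 28 mitochondrion-specific ones 15 were lower and 0 higher (median -0.13).

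The lowest values relative to control cells were those of small subunit genes. Mrps18b stood at 23.77, 24.47 and 24.55 TPM in knockout and at 40.60, 39.23 and 38.36 TPM in control cells under M1 (-0.68 ± 0.053, limma adjusted p = 2.89e-09). Mrps2, one of the proteins of bacterial descent, stood at 12.50, 12.51 and 14.17 TPM against 21.03, 20.93 and 22.19 TPM (-0.67 ± 0.046, limma adjusted p = 4.24e-10). Mrps5 followed at 14.28, 13.73 and 12.09 TPM against 19.57, 18.47 and 22.36 TPM (-0.56 ± 0.059, limma adjusted p = 2.14e-07). In each of these genes the knockout libraries lay below all control libraries. Among the large subunit genes Mrpl12 stood at 31.1 ± 1.8 against 40.5 ± 4.7 TPM (-0.37 ± 0.067, limma adjusted p = 1.78e-04). Mrpl10, Mrpl42, Mrpl45 and Mrps36 were not called in this comparison.

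The 4 members that were higher in knockout than in control cells under M1 began with Mrps21. It stood at 286.02, 278.51 and 282.85 TPM against 215.71, 202.60 and 209.59 TPM (0.43 ± 0.047, limma adjusted p = 3.2e-07). Mrpl14 stood at 130.27, 119.97 and 124.86 TPM against 101.02, 102.17 and 102.72 TPM (0.29 ± 0.048, limma adjusted p = 4.87e-05), while Tmem63b, with which it overlaps, was at 40.3 against 29.2 TPM. Mrpl18 was higher by 0.25 (limma adjusted p = 7.39e-04), and Mrpl16 was the fourth. Mrpl18 shares 141 exon bases with Tcp1 on the opposite strand, which was at 336.3 TPM in knockout and 290.3 TPM in control cells under M1. The part of this overlap was not tested. With 282.5 ± 3.8 TPM, Mrps21 was the highest member in knockout cells under M1.

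The response to M1 itself differed between genotypes for 34 of the 77 genes, beside 36.0% of all tested genes. In 31 the change under M1 was more negative in knockout than in control cells and in 3 it was less negative or more positive, beside 23.9% and 12.1% of all genes. Mrps2 went from 65.9 ± 0.37 to 13.1 ± 0.96 TPM in knockout and from 63.8 ± 0.83 to 21.4 ± 0.70 TPM in control cells, a difference of -0.72 ± 0.065 log2 units (limma adjusted p = 7.26e-08). Mrpl38, a mitochondrion-specific large subunit protein, went from 106.1 ± 1.9 to 12.9 ± 0.34 TPM and from 92.8 ± 1.3 to 16.8 ± 1.7 TPM (-0.54 ± 0.071, limma adjusted p = 7.89e-06). Mrps22, mitochondrion-specific and in the small subunit, went from 76.2 ± 1.2 to 24.2 ± 1.6 TPM and from 75.7 ± 1.3 to 35.2 ± 0.41 TPM (-0.54 ± 0.063, limma adjusted p = 2.12e-06). The 3 in the other direction were Mrpl14 (0.30), Mrps21 (0.22) and Mrpl18 (0.20). The call of Mrpl18 was at the threshold (limma adjusted p = 0.0478). With TMM factors 20 were more negative and 3 more positive, beside 19.5% and 16.8% of all genes.

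**Figure D4:**
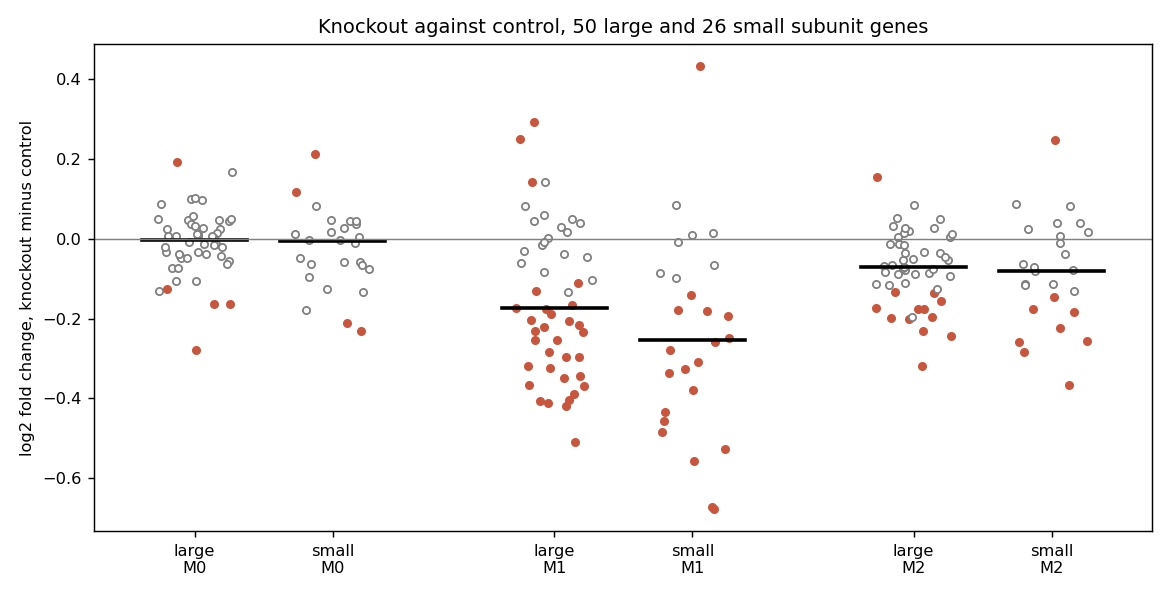
Log2 fold change of knockout against control (y axis, log2(TPM + 1) scale) for the 50 large and 26 small subunit genes in each condition; filled points passed an adjusted p of 0.05, open points did not, and bars are medians. Without stimulation the medians are near 0, under M1 they are -0.17 and -0.25, and under M2 -0.07 and -0.08.

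Under M2, 20 members were lower in knockout than in control cells, 2 higher and 55 not called, beside 18.3% lower and 12.7% higher among all tested genes. The median was -0.07 against -0.03 for all genes. This count was 12 without the second knockout M2 library and 13 without the third, and with TMM factors it was 13, beside 14.0% of all genes. The summed level was 7630, 7281 and 7227 TPM in the knockout and 7565, 7743 and 7782 TPM in the control libraries, so that 1 knockout library lay within the control range. Mrps21 was higher at 398.69, 388.19 and 385.58 TPM against 326.03, 345.84 and 315.94 TPM (0.25 ± 0.047, limma adjusted p = 5.07e-04), and Mrpl52 by 0.15 (limma adjusted p = 0.0126, not called without the second control M2 library). Mrps6 was lower by a log2 change of -0.37 (limma adjusted p = 0.0199) and Mrpl47 by one of -0.32 (limma adjusted p = 0.00474). The call of Mrps6 was lost without either the first or the third control library or the second or the third knockout library. Mrps5 was lower too (-0.28, limma adjusted p = 0.00114). The response to M2 differed between genotypes for 2 members, Mrpl27 (-0.20, limma adjusted p = 0.0471) and Mrps9 (-0.18, limma adjusted p = 0.0317), in both more negative in knockout cells, beside 7.05% of all genes in that direction and 7.06% in the other. Neither was called with TMM factors.

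The 3 knockout comparisons use different libraries but the same knockout and control lines, and they share 1 estimate of the spread. A fixed difference between the lines would recur in all 3. In all 3, 6 members were called in the same direction, 1 higher and 5 lower, beside 2.25% and 3.62% of all tested genes. Mrps21 was higher, by 0.21 in M0, 0.43 in M1 and 0.25 in M2 cells. The other 5 were lower. Mrps10, a small subunit protein with a bacterial homolog, changed by -0.21, -0.48 and -0.18, with 106.58, 109.88 and 110.32 TPM in knockout and 125.58, 124.48 and 128.62 TPM in control cells without stimulation. Mrps18b changed by -0.23, -0.68 and -0.18, Mrpl19 by -0.16, -0.30 and -0.23, and Mrpl35 by -0.16, -0.42 and -0.17. Mrps18a changed by -0.13, -0.32 and -0.18. The calls of Mrps18a and Mrpl35 without stimulation were near the threshold (limma adjusted p = 0.0432 and 0.0402) and were lost with TMM factors. Mrps18c, the remaining paralog, was lower under M1 and M2 (-0.26 in each, limma adjusted p = 0.00106 and 0.00228) and not called without stimulation (-0.07).

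A further 6 proteins of the same ribosome carry other symbols: Dap3, Ptcd3, Chchd1, Aurkaip1, Gadd45gip1 and Mrpl58, the last under its older symbol Ict1. All 6 fell under M1 in control cells and 4 fell under M2, beside 56.9% and 37.0% of all tested genes. In knockout cells under M1, 2 were lower, a share near the 33.4% of all genes. With TMM factors 5 fell under M1, 3 fell under M2 and 1 was lower in knockout cells under M1. The shares of all genes were then 43.0%, 31.4% and 27.1%. The direction of Dap3 under M1 turned with TMM factors (0.19, limma adjusted p = 2.61e-04). Ptcd3 went from 83.2 ± 1.9 to 15.7 ± 0.75 TPM under M1, and Gadd45gip1 from 52.3 ± 1.5 to 9.67 ± 0.60 TPM. Of 27 genes for assembly of this ribosome and modification of its RNA, 24 fell and 2 rose under M1 (median -1.28). Of all tested genes 56.9% fell and 32.2% rose. In knockout cells under M1, 16 of the 27 were lower and 2 higher (median -0.25), beside 33.4% and 16.9% of all tested genes. With TMM factors 21 fell and 4 rose under M1, beside 43.0% and 46.3% of all genes. In knockout cells under M1, 12 were then lower and 2 higher, beside 27.1% and 24.0%. Gtpbp10, a GTPase that acts in assembly of the large subunit, went from 12.03 ± 0.83 to 0.887 ± 0.11 TPM under M1. In knockout cells it was lower than in control cells in all 3 conditions, at 5.91 ± 0.25 against 12.03 ± 0.83 TPM without stimulation (-0.91 ± 0.094, limma adjusted p = 5.03e-07), 0.243 ± 0.029 against 0.887 ± 0.11 TPM under M1, and 3.92 ± 0.75 against 7.52 ± 0.63 TPM under M2. Without stimulation 2 of the 27, Gtpbp10 and Nsun4, were lower in knockout cells and 0 higher, beside 10.3% and 8.86% of all tested genes.

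Other genes of mitochondrial gene expression fell alongside. Of 16 genes for mitochondrial translation factors and messenger stability, 15 fell under M1 in control cells (median -1.38) and 3 fell under M2. Of all tested genes 56.9% and 37.0% fell. In knockout cells under M1, 8 of the 16 were lower and 0 higher (median -0.20), beside 33.4% and 16.9% of all tested genes. With TMM factors 14 fell and 2 rose under M1, beside 43.0% and 46.3% of all genes. The knockout counts were again 8 and 0, beside 27.1% and 24.0%. Lrpprc, which stabilises mitochondrial messenger RNA, went from 71.5 ± 1.5 to 10.8 ± 0.33 TPM under M1 in control cells and stood at 7.0 ± 0.47 TPM in knockout cells under M1. Of 10 genes for transcription and replication of mitochondrial DNA, 10 fell under M1 (median -1.82), and 10 with TMM factors too. In knockout cells under M1, 4 were lower, 0 higher and 6 not called (median -0.15), beside 33.4% lower and 16.9% higher among all tested genes. With TMM factors 3 were lower, beside 27.1%. Polrmt, the mitochondrial RNA polymerase, went from 25.9 ± 0.71 to 4.79 ± 0.51 TPM, and Top1mt, its topoisomerase, from 25.4 ± 0.46 to 3.88 ± 0.17 TPM and further to 1.61 ± 0.17 TPM in knockout cells under M1.

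Regulators known for driving such genes did not all move one way. Of 10 on the list 9 were tested. Under M1 in control cells 6 fell and 3 rose, beside 56.9% and 32.2% of all tested genes. With TMM factors 5 fell and 3 rose, beside 43.0% and 46.3%. The coactivator gene Pprc1 went from 45.6 ± 2.4 to 6.20 ± 0.55 TPM, and Ppargc1b from 7.95 ± 0.76 to 1.22 ± 0.28 TPM. Myc, a transcription factor known for raising ribosome production, rose from 0.46, 0.64 and 0.28 TPM to 56.10, 58.65 and 61.17 TPM (5.36 ± 0.081, limma adjusted p = 2.6e-22). In knockout cells under M1, 4 of the 9 were higher and 2 lower than in control cells, beside 16.9% and 33.4% of all genes. Myc was higher there at 81.5 ± 1.5 TPM (0.47, limma adjusted p = 7.8e-05), and Pprc1 and Ppargc1b were lower (-0.43 and -0.46, limma adjusted p = 1.73e-05 and 2.94e-04).

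The cytosolic ribosome and the respiratory chain give 2 points of comparison. Of 76 tested cytosolic ribosomal protein genes 74 fell under M1 in control cells (median -1.21), and of 74 nuclear genes for oxidative phosphorylation subunits 71 fell and 1 rose (median -1.20). Both medians are close to that of the members. Under M2 the cytosolic ribosomal protein genes had a median of -0.12 (53 lower, 2 higher) and the oxidative phosphorylation genes one of 0.04 (7 lower, 26 higher). In knockout against control cells under M1 the counts went other ways than for the members. Of the cytosolic ribosomal protein genes 26 were higher and 5 lower (median 0.05), and of the oxidative phosphorylation genes 23 were higher and 12 lower (median 0.02). With TMM factors 72 cytosolic ribosomal protein genes fell and 3 rose under M1 in control cells, and 63 oxidative phosphorylation genes fell and 5 rose (medians -0.70 and -0.69). Under M2, TMM factors gave 22 lower and 2 higher cytosolic ribosomal protein genes and 1 lower and 36 higher oxidative phosphorylation genes. In knockout against control cells under M1 they gave 36 higher and 3 lower cytosolic ribosomal protein genes and 29 higher and 9 lower oxidative phosphorylation genes (medians 0.11 and 0.08). Among all tested genes 56.9% fell and 32.2% rose under M1 in control cells, and 37.0% and 28.4% under M2. In knockout against control cells under M1, 33.4% were lower and 16.9% higher. With TMM factors these shares were 43.0% and 46.3%, 31.4% and 32.5%, and 27.1% and 24.0%. The difference between these lists was not tested. The summed TPM of the cytosolic genes was 20.9 ± 0.22 times that of the members in unstimulated, 19.7 ± 0.14 under M1 and 20.9 ± 0.065 times under M2 in control cells. In knockout cells it was 21.6 ± 0.084, 22.1 ± 0.27 and 21.8 ± 0.25 times. The knockout libraries were above the control libraries of the same condition in each case.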

How the data were processed

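The authors deposited 1 table of TPM per gene symbol for 18 libraries, with the same total in each. Its name speaks of raw counts and TPM, but the values are not whole numbers and were read as TPM. Per the submitters' processing notes, Trim Galore (no version given) and mm10 were used. Not given in the sources used here are the aligner, the quantifier, the use of strand and the handling of reads shared by gene copies, so values of genes with close copies or overlapping neighbours are uncertain.

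Sample titles gave each library's group and replicate number. Tests used limma 3.58.1 (R 4.3.3), with trend and robust moderation, on log2(TPM + 1), with 1 mean for each of the 6 groups and all 18 libraries in each fit. A gene entered with 1 TPM or more in 3 or more libraries, which 11548 did. Tests were two-sided, and calls took a p below 0.05 after Benjamini-Hochberg adjustment over all these genes. No p-value was made for the members as a list. The fitting script was tested on simulated data. The log2(TPM + 1) scale understates changes of low genes, and since TPM keeps no depth, no counting intervals were computed.

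Alternatives were TMM factors, computed with the published formula written out in R on the TPM of tested genes, median-ratio factors, other filters, a pseudocount of 0.1 TPM, only the groups compared, a replicate block, and each library left out. No 2 of the 153 library pairs held identical values. Promoters came from RefSeq (GRCm38.p6) and exon overlaps from GENCODE M21 (GRCm38). Python 3.11.15 made the motif counts and figures.

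The members, the lists and the motifs were chosen with earlier results of these data known. Named members are the 3 largest called rises and falls of each comparison, up to 5 members called in 1 direction in all 3 knockout comparisons (a sixth is named too, chosen after its values were seen), the 3 highest and 3 lowest by mean, the Mrps18 paralogs, Mrpl10, Mrpl12, Mrps30 and Mrps36. From each gene list up to 3 called genes with the largest changes are named. Mrpl13, Mrpl16, Mrpl24, Mrpl32, Mrpl53, Nsun4 and Dap3 are named to complete short counts, chosen after their values were seen.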

Additional observations from a re-analysis of the deposited data

Results flagged for a closer look

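The change under M1 differed between genotypes by the fit's own test of that difference for 3 members with a higher and 31 with a lower value in knockout cells. Of all tested genes 12.1% were higher and 23.9% lower in this way. By name, the differences (knockout minus control, log2 units) were 0.30 for Mrpl14, 0.22 for Mrps21 and 0.20 for Mrpl18, and -0.72 for Mrps2, -0.54 for Mrpl38 and -0.54 for Mrps22. All 6 stood in the same direction under each alternative run. The calls of Mrpl14, Mrps21, Mrps2, Mrpl38 and Mrps22 also held under each, and that of Mrpl18 did not, with 11 alternatives above the threshold. With TMM factors 3 members were higher and 20 lower, beside 16.8% and 19.5% of all genes. With median-ratio factors 3 were higher and 17 lower, beside 17.5% and 18.5%.

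The change under M2 differed between genotypes for 2 members, both lower in knockout cells: Mrpl27 by -0.20 and Mrps9 by -0.18. Of all tested genes 7.05% were lower and 7.06% higher in this way. With each of the 12 libraries of this comparison left out in turn, the call of Mrpl27 was lost 11 times and that of Mrps9 8 times.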

How the results depend on the processing

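Results for the members chosen by the naming rule were computed 1179 times under alternatives, over 87 results. The direction and the side of the threshold held in 1084, the call was lost in 94, and 1 turned its direction: Mrps18a under M1 in control cells, 0.028 with TMM factors. Over all called members, 5 turned with TMM and 4 with median-ratio factors under M1 in control cells, 7 and 7 in knockout cells, and 0 in the other comparisons. With TMM and median-ratio factors the members higher under M1 were 9 and 8 in control cells (5 as reported) and 9 and 8 in knockout cells (4). Of all genes 46.3% and 45.1% rose in control cells, and 46.2% and 45.4% in knockout cells. Under M2 in knockout cells 8 and 6 were higher (5) and 39 and 45 lower (53). The shares of all genes were then 34.6% and 32.3% higher and 35.6% and 39.2% lower. Lower in knockout cells under M2 were 13 and 13 (20), beside 14% and 13.4% of all genes. With a more negative M1 response in knockout cells there were 20 and 17 (31), beside 19.5% and 18.5%. With a more negative M2 response there were 0 and 0 (2), beside 5.7% and 5.07%. This count was 1 without a filter, 1 with a pseudocount of 0.1 TPM and 4 with only the groups compared. With 1 library left out it ran from 0 to 4. The count of members lower in knockout cells under M2 ran from 12 to 25, and that of members higher from 1 to 2. With a replicate block, members lower under M2 in control cells were 43 (45), with a more negative M1 response 33 (31), and no count moved by more than 2. Same-numbered libraries of different groups correlated in their deviations from group means at -0.16 to 0.15 (45 pairs), so the numbers were not taken to pair the samples. For 10 of 18 libraries the best match had their own number, where 5 of the 15 libraries compared carry it and an even draw gives 6. Depth is unknown with TPM, so no limit of detection can be given.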
